A study of Homo sapiens with 6 samples.

Results

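The proteasome genes were taken as every protein-coding gene whose symbol starts with PSMA, PSMB, PSMC, PSMD, PSME, PSMF or PSMG followed by a digit. The rule took 50 of the 26389 genes in the count table, and these 50 carried 48 symbols, because PSMA1 and PSMA2 are each listed under 2 gene identifiers. They were compared between HepG2 cells, a human liver cancer cell line, transfected with a plasmid for a short hairpin RNA against TCTP (shTCTP, 3 samples) and the same line transfected with a control hairpin plasmid (shCtrl, 3 samples). TCTP, encoded by TPT1, is a small and abundant protein of growing cells. Both groups received a plasmid by lipid transfection with Lipofectamine 2000, and no untransfected sample was analysed here. Polyadenylated RNA was sequenced from strand-marking libraries. Whether the 3 samples of a group were grown apart is not in the labels, and a p-value here therefore measures no more than the scatter among the 6 samples, some of which may be technical.

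The proteasome degrades proteins that carry ubiquitin chains. Its 20S core is a barrel of outer alpha rings and inner beta rings, and the catalytic sites lie in PSMB5, PSMB6 and PSMB7. The 19S cap binds, unfolds and feeds in substrates. Interferon-gamma and some tissues induce the alternative catalytic subunits PSMB8, PSMB9 and PSMB10, which take the places of PSMB5, PSMB6 and PSMB7 in the immunoproteasome and change the peptides offered to class I antigen presentation.

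Promoters of the 3 inducible catalytic subunits and of PSMB5 are shown because the results set inducible against constitutive subunits, a contrast in which no test passed its threshold. The sequences are the 250 bases before a RefSeq start site (build GRCh38.p14), written 5′ to 3′ on the gene's own strand, with motif matches in capitals. Those of PSMB8 (chr6:32844048-32844297, minus strand) and PSMB5 (chr14:23034901-23035150, minus strand) belong to the one of 2 start sites that held a match. PSMB9 is at chr6:32853942-32854191, plus strand, and PSMB10 at chr16:67936851-67937100, minus strand.
PSMB8: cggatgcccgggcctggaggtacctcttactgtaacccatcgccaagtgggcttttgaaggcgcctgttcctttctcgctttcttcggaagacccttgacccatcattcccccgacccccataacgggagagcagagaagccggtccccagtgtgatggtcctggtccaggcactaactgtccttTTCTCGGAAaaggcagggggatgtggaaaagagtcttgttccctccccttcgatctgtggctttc
PSMB9: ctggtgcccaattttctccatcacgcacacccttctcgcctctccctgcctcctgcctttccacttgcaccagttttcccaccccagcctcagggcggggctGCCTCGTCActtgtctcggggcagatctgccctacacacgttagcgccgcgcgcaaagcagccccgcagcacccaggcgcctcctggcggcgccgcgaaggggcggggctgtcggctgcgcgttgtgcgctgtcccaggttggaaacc
PSMB10: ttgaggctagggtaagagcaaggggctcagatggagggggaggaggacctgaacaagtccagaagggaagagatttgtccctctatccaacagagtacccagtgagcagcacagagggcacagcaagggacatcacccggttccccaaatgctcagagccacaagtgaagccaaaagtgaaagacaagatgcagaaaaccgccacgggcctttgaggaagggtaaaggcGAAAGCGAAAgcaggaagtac
PSMB5: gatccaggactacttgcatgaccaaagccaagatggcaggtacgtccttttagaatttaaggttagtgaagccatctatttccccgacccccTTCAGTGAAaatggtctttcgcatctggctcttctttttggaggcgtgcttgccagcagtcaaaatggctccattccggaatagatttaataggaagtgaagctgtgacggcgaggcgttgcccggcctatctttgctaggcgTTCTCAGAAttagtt
Capitals mark TTCNNNGAA, the interferon-gamma activated site, in PSMB8 and at 2 places in PSMB5, a pair of GAAA with any 2 bases between them, the core of the interferon response element, in PSMB10, and TGACNNNGC, the core of the antioxidant response element, on the opposite strand in PSMB9. Both strands were searched, TTCNNNGAA reads the same on either strand, and no match of one motif overlapped another in these 4 windows. TTCNNNGAA was found for 6 of 42 proteasome genes with a promoter entry (14.3%), against 8.09% of 27305 genes in the same table. The GAAA pair was found for 5 of the 42 (11.9%), against 3.71% of all, and TGACNNNGC for 13 of the 42 (31%), against 13.2% of all. These matches describe the letters in the windows and show no binding. PSMB6 and PSMB7 had no entry.

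The count totals were 25427614 to 30486409 reads per sample, and proteasome genes took 0.935% to 0.9645% of the reads in shTCTP samples and 0.823% to 0.9018% in shCtrl samples. These shares are before scaling between samples, whose factors were 0.958, 1.001 and 1.166 in shTCTP and 1.018, 0.957 and 0.919 in shCtrl. After scaling, the median log2 fold change of the proteasome genes tested was -0.04. TPT1, the gene the hairpin targets, had 2032, 1807 and 1559 CPM (counts relative to library size, scaled by trimmed mean of M-values) in shTCTP cells, against 2575, 2249 and 2290 CPM in shCtrl cells. The groups did not overlap, the log2 fold change was -0.40 (SE 0.17), and edgeR's quasi-likelihood test gave an adjusted p of 0.396. shTCTP replicate 3 stood apart from the rest, with the fewest reads and a mean correlation with the other 5 of 0.977, against 0.986 to 0.987 for the others. Hepatocyte markers were abundant in all samples, with summed FPKM (fragments per kilobase, scaled to depth, as deposited) of 6370, 5434 and 6173 in shTCTP and 7163, 7011 and 6630 in shCtrl. None of their 10 genes passed the test, with 2 at an unadjusted p under 0.05, beside 11.1% of all genes. All 10 had negative log2 fold changes. In 5 of them every shTCTP sample was below every shCtrl sample, beside 7.3% of all genes. Endothelial marker genes summed to at most 0.09 FPKM, and 3 measured fibroblast markers to at most 3 FPKM. Leukocyte markers summed to 472.8, 427.4 and 551.3 FPKM in shTCTP and 596.5, 507.9 and 482 FPKM in shCtrl, and CD3E had 0 reads in 5 samples. Nearly all of that sum was LYZ, with 26198, 23241 and 25588 reads in shTCTP and 32618, 27871 and 26576 reads in shCtrl. The markers CD68, CD14 and LYZ had negative log2 fold changes, from -0.52 to -0.23, and none of these 3 passed the test. CD14 and LYZ were lower in every shTCTP sample than in every shCtrl sample, as were 7.3% of all genes. ITGAM, a myeloid integrin gene, was called higher, at 1.99, 2.52 and 1.28 CPM in shTCTP and 0.885, 0.659 and 0.431 CPM in shCtrl (log2 fold change 1.54, edgeR adjusted p = 0.0375). ITGAM lost that call when any one sample other than shTCTP replicate 3 was left out (log2 fold change 1.29 to 1.81, edgeR adjusted p 0.0675 to 0.193), and also with limma voom (adjusted p = 0.0639) and limma on log2(FPKM + 1) or log2(FPKM + 0.1) (adjusted p = 0.0684 and 0.0516). In bulk RNA, fewer cells of a type and less RNA per cell cannot be told apart.

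No proteasome gene passed the test between shTCTP and shCtrl. Of 49 tested, 0 were called higher and 0 lower at an adjusted p under 0.05 (edgeR), where 1.26% of the 14197 genes tested were called higher and 0.148% lower, 1.41% in all. At an unadjusted p under 0.05 edgeR took 1 proteasome gene, PSMA6, against 11.1% of all genes (6.8% higher and 4.27% lower), and DESeq2 called 0 after adjustment and took 2 at an unadjusted p under 0.05. The log2 fold changes ran from -0.39 to 0.29, with 19 positive and 30 negative. Their median was -0.04, beside -0.0023 over all genes tested. The 95% confidence interval of the fold change lay inside 2-fold in either direction for all 49, and inside 1.5-fold for 39 of them. In 2 genes every shTCTP sample was above every shCtrl sample (PSMC4 and PSMD2), beside 9.83% of all genes, and in 3 every shTCTP sample was below (PSME1, PSMG1 and PSMG2), beside 7.3% of all genes.

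**Figure D1:**
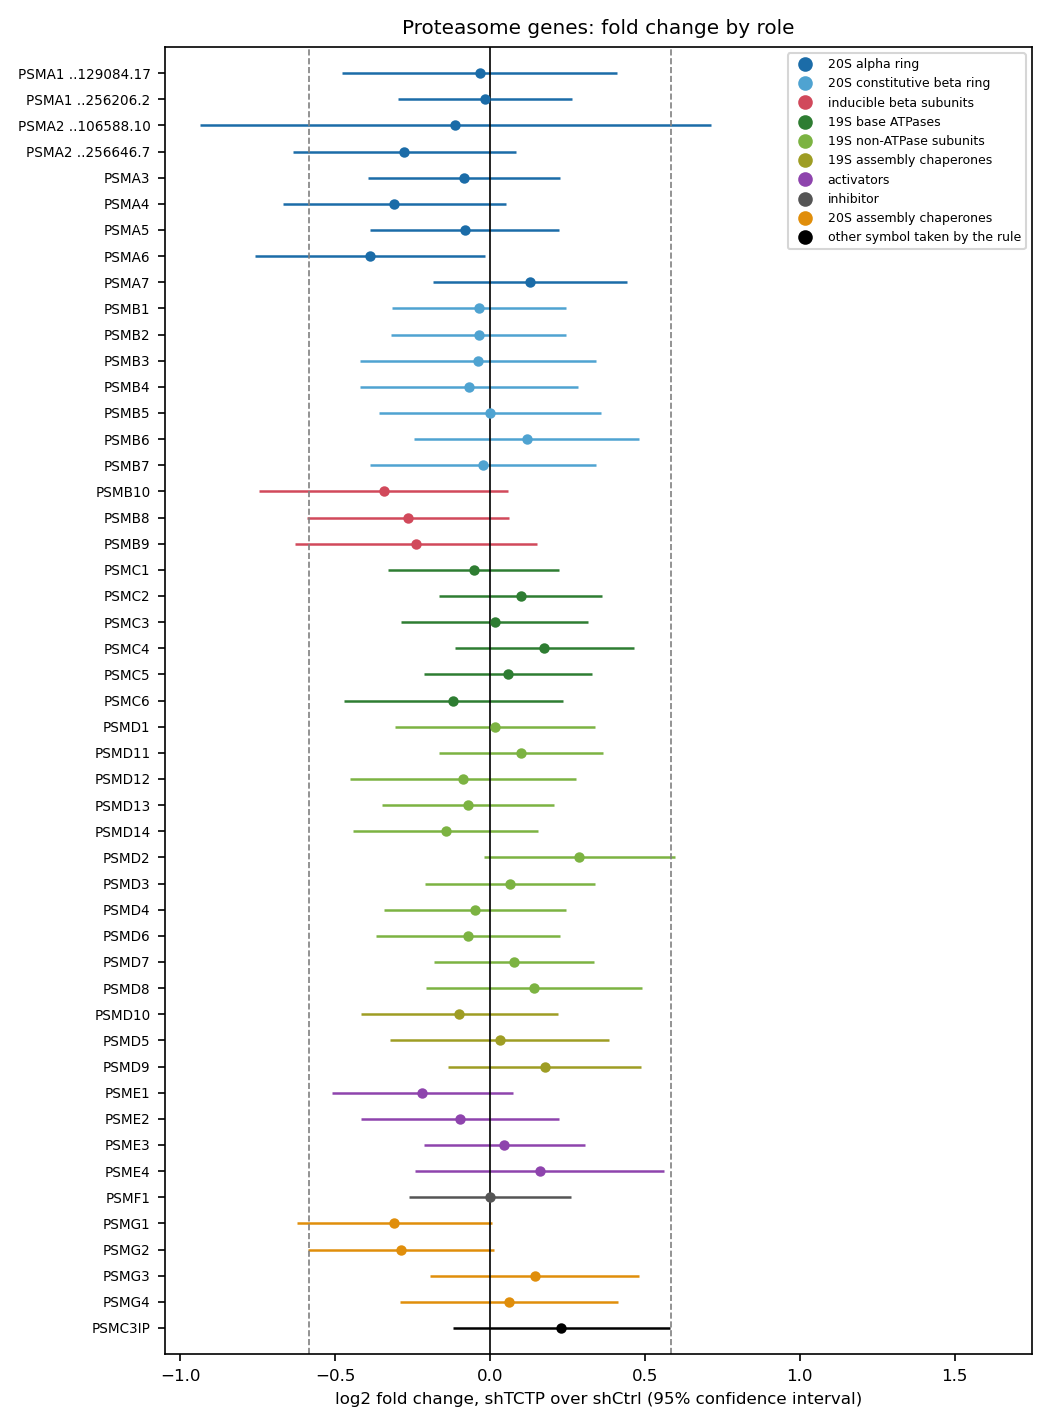
Log2 fold change of shTCTP over shCtrl for the 49 proteasome genes tested, coloured by role. Points are edgeR estimates, bars are 95% confidence intervals, and dashed lines mark 1.5-fold in either direction. The 3 inducible beta subunits lie left of 0, from -0.34 to -0.24, while 6 of 7 constitutive beta subunits lie between -0.07 and 0.

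The alpha ring, which forms the gate of the 20S barrel, had 8 negative log2 fold changes and 1 positive among its 9 entries, with a median of -0.08. PSMA6, an alpha subunit, had 28.98, 18.9 and 17.4 CPM in shTCTP, against 27.2, 30.5 and 27.8 CPM in shCtrl. Only the first shTCTP sample lay within the shCtrl range. Its log2 fold change was -0.39 (SE 0.18), with an unadjusted p of 0.0416 and an adjusted p of 0.422 in edgeR. The log2 fold change was -0.65 without shTCTP replicate 1 and -0.24 without shTCTP replicate 3. PSMA7, the most abundant alpha subunit in FPKM, had 609, 540 and 497 CPM in shTCTP and 469, 480 and 556 CPM in shCtrl, and its log2 fold change of 0.13 was the one positive value of the ring.

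PSMA1 and PSMA2 are uncertain gene by gene, because each symbol covers overlapping gene models between which reads may have been split. Identifier ENSG00000106588.10 of PSMA2 held 46, 16 and 30 reads in shTCTP and 36, 21 and 41 in shCtrl, the lowest level of the ring. Its sister entry ENSG00000256646.7 held most PSMA2 reads. Summed over both entries, PSMA2 had 92.7, 68.6 and 53.8 CPM in shTCTP and 97.4, 78.6 and 84.3 CPM in shCtrl, and its log2 fold change was -0.28 (SE 0.17, adjusted p = 0.592 in edgeR). Summed PSMA1 had 84.1, 90.5 and 82.3 CPM in shTCTP and 102, 76.1 and 82.1 CPM in shCtrl, a log2 fold change of -0.02 (SE 0.14).

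The constitutive beta subunits held the highest levels of the set, and their group means were close. PSMB5, which carries the chymotrypsin-like activity, had 1356, 1266 and 1087 CPM in shTCTP, against 1032, 1304 and 1374 CPM in shCtrl. The samples interleaved, and the log2 fold change was -0.00074 (SE 0.17, 95% confidence interval -0.36 to 0.36). PSMB6, the caspase-like subunit, had 420, 423 and 318 CPM in shTCTP and 272, 387 and 410 CPM in shCtrl (log2 fold change 0.12). PSMB7, the trypsin-like subunit, had 469, 442 and 306 CPM in shTCTP and 346, 453 and 437 CPM in shCtrl (log2 fold change -0.02). In CPM of each of these 3 genes shTCTP replicate 3 was the lowest of its group and shCtrl replicate 1 the lowest of the other. PSMB4, a structural beta subunit, was the lowest of the ring by fold change at -0.07, with 451, 426 and 310.5 CPM in shTCTP and 349, 432 and 464 CPM in shCtrl. PSMB2, also non-catalytic, was the least abundant in FPKM, with 204, 258 and 227 CPM in shTCTP and 233, 229 and 245 CPM in shCtrl.

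The inducible catalytic subunits had negative log2 fold changes in all 3 tested, although each overlapped between the groups and none passed the test. PSMB8 (chr6:32840717-32844703, minus strand, GRCh38), the inducible partner of PSMB5, had 57.4, 55.5 and 42.0 CPM in shTCTP, against 51.2, 67.7 and 67.4 CPM in shCtrl. The log2 fold change was -0.27 (SE 0.15, edgeR adjusted p = 0.556). PSMB9 (chr6:32844136-32859585, plus strand), the partner of PSMB6, had 8.53, 8.68 and 6.65 CPM in shTCTP, against 7.64, 9.95 and 10.6 CPM in shCtrl. Its log2 fold change was -0.24 (SE 0.18, edgeR adjusted p = 0.691). PSMB10 (chr16:67934502-67937087, minus strand), the partner of PSMB7, had 5.79, 5.72 and 4.96 CPM in shTCTP and 5.64, 7.39 and 7.90 CPM in shCtrl. Its log2 fold change was -0.34 (SE 0.19, edgeR adjusted p = 0.533). PSMB8 and PSMB9 moved to -0.13 and -0.12 without shTCTP replicate 3, and PSMB9 to -0.37 without shCtrl replicate 1 and -0.15 without shCtrl replicate 3. The PSMB8 and PSMB9 annotations overlap by 567 bases on opposite strands, and whether counting used strand is not given in the sources used here. PSMB11, the thymus-specific beta subunit, held 2, 6 and 4 reads in shTCTP and 2, 1 and 0 in shCtrl and was not tested.

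Within a sample, the inducible subunits were a small fraction of their constitutive partners, and that fraction was lower in every shTCTP sample than in every shCtrl sample. Among single genes in CPM, 7.3% of all were lower in every shTCTP sample, and the share among gene ratios was not computed. A ratio of constitutive subunits separated the groups too. PSMB4 was under PSMB6 in FPKM in every shTCTP sample and above it in every shCtrl sample. PSMB8 stood at 4.01%, 4.14% and 3.66% of PSMB5 in FPKM in shTCTP, against 4.69%, 4.91% and 4.63% in shCtrl. PSMB9 stood at 1.92%, 1.95% and 1.98% of PSMB6 in shTCTP, against 2.66%, 2.43% and 2.44% in shCtrl. PSMB10 stood at 0.993%, 1.04% and 1.31% of PSMB7 in shTCTP, against 1.31%, 1.31% and 1.45% in shCtrl. The PSMB9 ratio separated the groups with the smallest spread within shTCTP, whereas the PSMB10 ratio of shTCTP replicate 3 (1.306%) lay just under the lowest of shCtrl (1.313%). These ratios rest on 197 to 295 reads of PSMB9 and 147 to 220 reads of PSMB10 per sample. At such read numbers counting error alone is larger than that gap and than the PSMB9 spread within shTCTP.

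On the log2 scale the PSMB8 to PSMB5 ratio averaged -4.67 ± 0.09 in shTCTP and -4.40 ± 0.04 in shCtrl (SD, n = 3 each), a difference of -0.27 (exact two-sided permutation test, p = 0.1). The PSMB9 to PSMB6 ratio averaged -5.68 ± 0.02 in shTCTP and -5.32 ± 0.07 in shCtrl, a difference of -0.36 (exact permutation p = 0.1). The PSMB10 to PSMB7 ratio averaged -6.50 ± 0.21 in shTCTP and -6.20 ± 0.08 in shCtrl, a difference of -0.30 (exact permutation p = 0.1). The exact test of 3 against 3 samples cannot give less than 0.1, so none can pass 0.05, and 0.1 is also the p adjusted over the 3 ratios. The 3 ratios come from the same 6 samples and are not separate evidence. A ratio within a sample does not depend on how samples are scaled. PSMB6 itself had a positive log2 fold change, while PSMB5 and PSMB7 were near 0.

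**Figure D2:**
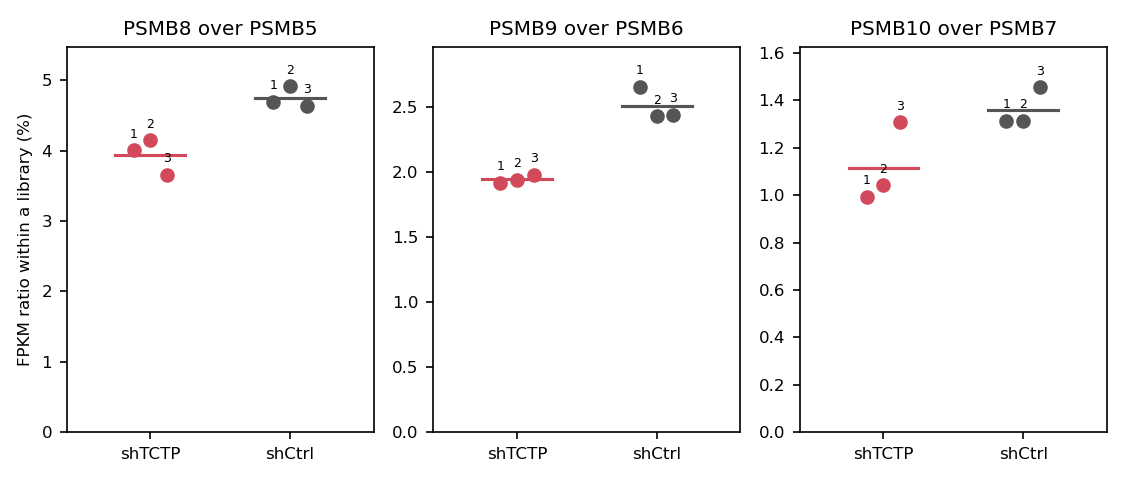
FPKM of each inducible catalytic subunit as a percentage of its constitutive partner in the same sample, on linear axes that start at 0. Points are samples with their replicate numbers and lines are group means. In all 3 panels the shTCTP samples lie under the shCtrl samples, narrowly so for PSMB10 over PSMB7, where shTCTP replicate 3 is at 1.31%.

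The 19S cap differed little in its median, with 10 positive and 7 negative log2 fold changes among 17 genes and a median of 0.02. It is made of the base ATPases that unfold substrates and the non-ATPase subunits of base and lid. Among the ATPases, PSMC4 (chr19:39971005-39981441, plus strand) had 293, 282 and 285 CPM in shTCTP, against 216, 270 and 275 CPM in shCtrl. All shTCTP samples were higher, with a log2 fold change of 0.175 (SE 0.14; adjusted p = 0.697 in edgeR). Without shCtrl replicate 1, the lowest of the 6, it was 0.07. PSMC3, the most abundant ATPase, had 320, 307 and 274 CPM in shTCTP and 251, 323 and 318 CPM in shCtrl (log2 fold change 0.02). PSMC6, the least abundant, had 25.7, 18.6 and 23.0 CPM in shTCTP and 29.3, 23.4 and 20.3 CPM in shCtrl (log2 fold change -0.12).

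PSMD2 (chr3:184298709-184309054, plus strand), the large base subunit that receives substrates and cofactors, had the highest fold change of the set. It had 632, 567 and 603 CPM in shTCTP, against 444, 550 and 482 CPM in shCtrl. All shTCTP samples were above all shCtrl samples, by 1.22-fold (log2 fold change 0.29, SE 0.15, edgeR adjusted p = 0.48). The 95% confidence interval of the log2 fold change was -0.02 to 0.60. PSMD8, a lid subunit, had 536, 512 and 430 CPM in shTCTP and 347, 492 and 501 CPM in shCtrl (log2 fold change 0.14). PSMD14, the lid enzyme that removes ubiquitin chains, was the lowest of the 11 non-ATPase subunits by fold change at -0.14, with 42.8, 42.8 and 41.4 CPM in shTCTP and 55.6, 39.9 and 44.7 CPM in shCtrl. PSMD12, a lid scaffold subunit, had 24.1, 22.1 and 24.9 CPM in shTCTP and 33.2, 22.1 and 20.4 CPM in shCtrl (log2 fold change -0.09).

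Set against each other, the 3 parts of the complex gave medians of -0.04 for 16 entries of the 20S core, 0.02 for 17 genes of the 19S cap and -0.24 for 5 immunoproteasome genes (PSMB8, PSMB9, PSMB10, PSME1 and PSME2). Signs were 2 positive and 14 negative in the core, 10 and 7 in the cap, and 0 and 5 in the immunoproteasome genes. These tallies depend on shTCTP replicate 3 and on shCtrl replicate 1. Without shTCTP replicate 3, PSME2 and the cap genes PSMC1 and PSMD4 had positive values, and the cap gene PSMD1 had a negative value. The core entries PSMA1 (ENSG00000256206.2), PSMA5, PSMB1, PSMB3, PSMB4, PSMB5 and PSMB7 were also positive without that sample. Without shCtrl replicate 1, both PSMA1 entries, PSMA3, PSMC6, PSMD6 and PSMD12 had positive values, and PSMB6, PSMC3, PSMC5 and PSMD8 had negative values. On log2(FPKM + 1), which is not scaled between samples beyond depth, the core median was 0.06, the cap median 0.125 and the immunoproteasome median -0.12. Summed FPKM of the cap was 1377, 1345 and 1503 in shTCTP, against 1187, 1304 and 1232 in shCtrl. Those sums did not overlap, but summed CPM after scaling did, at 3347, 3132 and 3039 in shTCTP and 2704, 3133 and 3072 in shCtrl. The core had summed FPKM of 3825, 3772 and 3583 in shTCTP and 3127, 3676 and 3649 in shCtrl. The ratio of core to cap in FPKM was 2.78, 2.80 and 2.38 in shTCTP and 2.64, 2.82 and 2.96 in shCtrl, which overlapped.

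**Figure D3:**
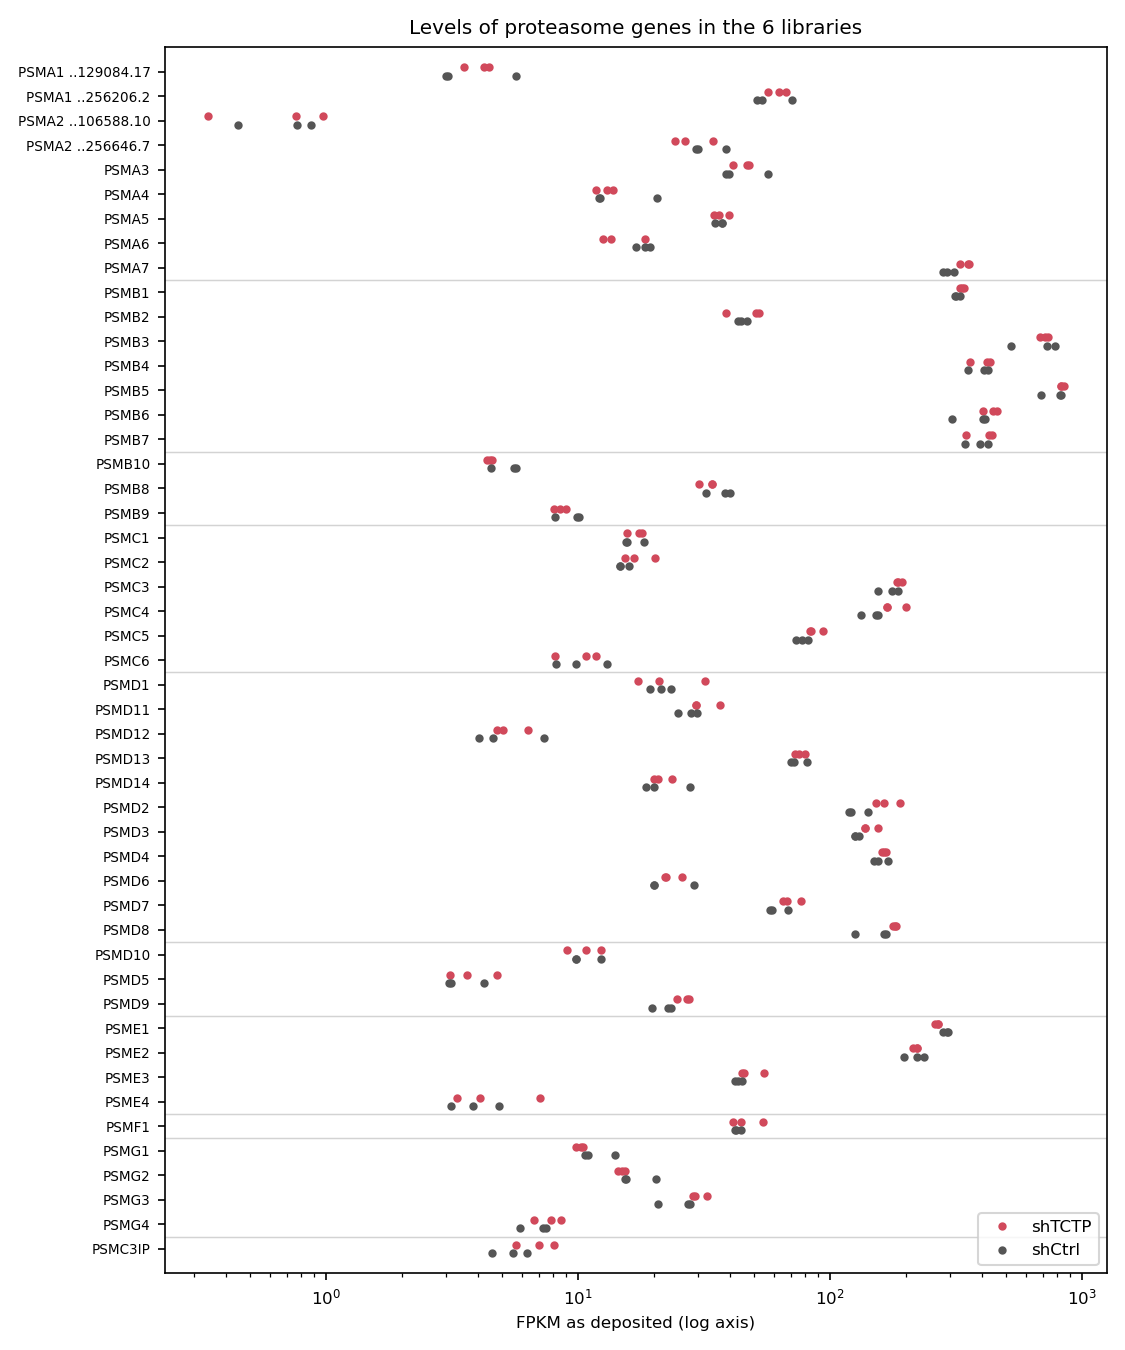
Deposited FPKM of the 49 proteasome genes tested in each of the 6 samples, on a log axis, with shTCTP points above shCtrl points for each gene and grey lines between roles. PSMB5 is highest, with a mean over 6 samples of 806 FPKM, and the inducible subunits PSMB8, PSMB9 and PSMB10 lie at 34.9, 8.95 and 4.86 FPKM.

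Subunits that sit in equal numbers in the complex were far from equal in FPKM. In mean FPKM over the 6 samples, a per-length level, PSMB5 (806) and PSMB3 (695) led, followed by PSMB6 (406), PSMB4 (399.9), PSMB7 (397) and PSMB1 (327). The highest and lowest constitutive beta subunits differed 17.5-fold, the ATPases 17.6-fold and the non-ATPase cap subunits 31.2-fold. These folds depend on the gene lengths behind FPKM, which counts and FPKM put at 1527 bases for PSMB5 and 5052 for PSMB2. In mean CPM, not divided by length, PSMB5 and PSMB2 lay closer, at 1236 and 230 in shTCTP and 1237 and 236 in shCtrl. The ranges of PSMB6, PSMB4 and PSMB7 over samples overlapped in the plot of deposited levels, and whether they differed within samples was not tested. PSMB6 had 443, 462 and 407 FPKM in shTCTP, against 431, 421 and 360 FPKM for PSMB4 in the same samples. In shCtrl PSMB6 had 304, 407 and 414 FPKM, against 353, 411 and 424 FPKM for PSMB4.

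The activators replace or join the 19S cap on the 20S barrel. PSME1 (chr14:24136158-24138967, plus strand), the interferon-inducible PA28 alpha, had 347, 345 and 294 CPM in shTCTP, against 351, 392 and 405 CPM in shCtrl. All shTCTP samples were lower, with a log2 fold change of -0.22 (SE 0.14; adjusted p = 0.601 in edgeR), or -0.14 without shTCTP replicate 3. PSME2, PA28 beta, whose gene lies 4395 bases away, had a log2 fold change of -0.10, or 0.0077 without shTCTP replicate 3. PSME4, the PA200 activator, had 31.7, 24.8 and 44.8 CPM in shTCTP and 35.5, 29.9 and 25.2 CPM in shCtrl (log2 fold change 0.16). Its highest value was shTCTP replicate 3. PSMF1, a proteasome inhibitor, had 198, 206 and 215 CPM in shTCTP and 203, 203 and 214 CPM in shCtrl (log2 fold change -0.00095, SE 0.12).

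The 4 chaperones that build the 20S core had negative values in one pair and positive values in the other. PSMG1 and PSMG2 form one alpha-ring assembly chaperone, and PSMG3 and PSMG4 another. PSMG1 (chr21:39174769-39183851, minus strand) had 24.6, 23.2 and 18.98 CPM in shTCTP, against 31.0, 25.7 and 26.0 CPM in shCtrl, and its log2 fold change was -0.31 (SE 0.15, adjusted p = 0.458 in edgeR). PSMG2, named after its values were seen, had 33.1, 30.001 and 26.3 CPM in shTCTP, against 41.3, 33.3 and 34.6 CPM in shCtrl, with a log2 fold change of -0.29 (SE 0.14; adjusted p = 0.473 in edgeR). In both genes all shTCTP samples were below all shCtrl samples. Without shTCTP replicate 3 the log2 fold change was -0.196 for PSMG1 and -0.196 for PSMG2, without shCtrl replicate 1 that of PSMG2 was -0.188, and with both left out that of PSMG1 was -0.114. PSMG3 had 62.4, 67.1 and 50.4 CPM in shTCTP and 42.0, 59.9 and 61.0 CPM in shCtrl (log2 fold change 0.14), and PSMG4 had 49.3, 52.3 and 34.9 CPM in shTCTP and 35.3, 47.5 and 48.2 CPM in shCtrl (log2 fold change 0.06).

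The 3 chaperones of the 19S base differed by less than the spread between samples. PSMD9 had 82.5, 80.9 and 62.0 CPM in shTCTP and 56.2, 71.5 and 71.8 CPM in shCtrl (log2 fold change 0.18, SE 0.15). PSMD10, also known as gankyrin and described as abundant in liver cancers, had 18.2, 14.6 and 17.1 CPM in shTCTP and 19.5, 16.6 and 17.2 CPM in shCtrl (log2 fold change -0.10). PSMD5 had 13.6, 11.3 and 14.8 CPM in shTCTP and 15.1, 11.8 and 11.99 CPM in shCtrl (log2 fold change 0.03). PSMC3IP, a meiotic recombination factor that the rule took by its letters, had 9.56, 11.3 and 11.1 CPM in shTCTP and 9.90, 9.33 and 8.004 CPM in shCtrl (log2 fold change 0.23, edgeR adjusted p = 0.657).

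Single samples departed from their own group in many proteasome genes. shCtrl replicate 1 lay past 1.2-fold from the mean of the other shCtrl samples in 26 of 49 genes, with log2 differences from -0.64 to 0.79. It was lower in all 7 constitutive beta subunits (median -0.36) and all 5 immunoproteasome genes (median -0.40), and higher in 6 of 9 alpha-ring entries (median 0.26). shTCTP replicate 3 lay past 1.2-fold from the mean of the other shTCTP samples in 19 of 49, with log2 differences from -0.58 to 0.68. It was lower in 15 of 16 core entries (median -0.24) and in all 5 immunoproteasome genes (median -0.31). The part of shCtrl replicate 1 and shTCTP replicate 3 in the comparisons above shows in the medians without them. Without shTCTP replicate 3 the median log2 fold change was 0.03 in the 20S core, 0.08 in the 19S cap and -0.13 in the immunoproteasome genes. Without shCtrl replicate 1 these medians were -0.07 in the core, 0.04 in the cap and -0.37 in the immunoproteasome genes. The core median was -0.12 without shTCTP replicate 1 and -0.0995 without shTCTP replicate 2. It changed sign when shTCTP replicate 3 was left out, and the immunoproteasome median kept its sign but moved by more than 1.5 times without shTCTP replicate 3 and without shCtrl replicate 1. With both of these samples left out, the log2 differences of the catalytic ratios were -0.23 for PSMB8 to PSMB5, -0.33 for PSMB9 to PSMB6 and -0.44 for PSMB10 to PSMB7.

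**Figure D4:**
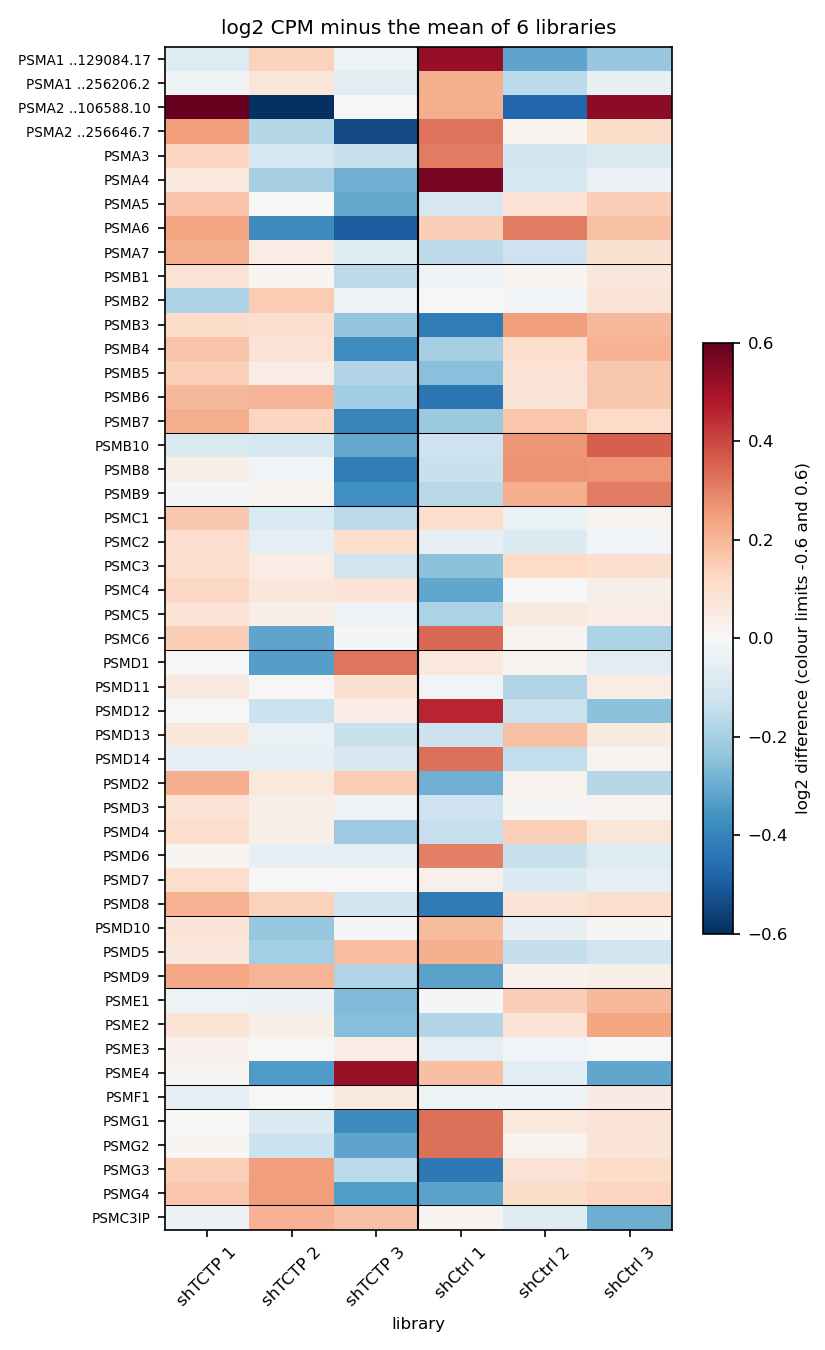
Log2 CPM of each proteasome gene minus its mean over the 6 samples, with shTCTP columns left of shCtrl columns and horizontal lines between roles. Colours stop at 0.6 in either direction. shCtrl replicate 1 is blue for PSMB3 to PSMB7 and for PSMB8 to PSMB10 and red for most alpha-ring entries, and shTCTP replicate 3 is blue for most of the core and for PSMB8 to PSMB10.

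Outside the named subunits, 1 gene of the wider pathway was called higher. MAFF, a small MAF protein that pairs with the factors NFE2L1 and NFE2L2 on antioxidant response elements, rose in shTCTP. It had 68.7, 69.5 and 60.4 CPM in shTCTP, against 26.7, 31.4 and 28.3 CPM in shCtrl, with a log2 fold change of 1.202 (SE 0.13; adjusted p = 6.75e-05 in edgeR). The other small MAF genes had positive log2 fold changes with no overlap between groups, as did 9.83% of all genes, and did not pass the test, at 0.51 for MAFG (edgeR adjusted p = 0.0784) and 0.53 for MAFK (edgeR adjusted p = 0.0917). NFE2L1, which drives proteasome genes when proteasome activity is short, had 154, 146 and 151 CPM in shTCTP and 164, 190 and 152 CPM in shCtrl (log2 fold change -0.16, edgeR adjusted p = 0.699). Of the 7 genes of this list 1 was called higher and 0 lower, beside 1.26% and 0.148% of all genes, with a median log2 fold change of 0.13. At an unadjusted p under 0.05 edgeR took 3 (MAFF, MAFG and MAFK), beside 11.1% of all genes. The list was chosen with earlier results of these data known.

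In 13 other subunit and assembly genes 0 were called by edgeR, with 1 at an unadjusted p under 0.05, as for 11.1% of all genes tested, and a median log2 fold change of 0.10. That gene was ZFAND2A, a stress-induced partner of the 19S cap, with 151, 137 and 111 CPM in shTCTP and 85.9, 106 and 111 CPM in shCtrl (log2 fold change 0.39, edgeR adjusted p = 0.284). In 14 ubiquitin and delivery genes 0 were called, with 1 at an unadjusted p under 0.05 (11.1% of all genes) and a median of 0.02. SQSTM1, the autophagy receptor for ubiquitinated cargo, had 1049, 986 and 893 CPM in shTCTP, against 616, 754 and 752 CPM in shCtrl, with no overlap (log2 fold change 0.46, SE 0.16, edgeR adjusted p = 0.212).

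Genes that induce the immunoproteasome or load antigen did not pass the test in any of 12 tested, with 0 at an unadjusted p under 0.05 (11.1% of all genes) and a median log2 fold change of -0.04. STAT2, an interferon signal transducer, had the lowest p, with 9.11, 8.48 and 11.3 CPM in shTCTP and 10.3, 12.1 and 10.7 CPM in shCtrl (log2 fold change -0.20, edgeR adjusted p = 0.727). TAP1, the peptide transporter gene that neighbours PSMB9, had 55.3, 55.4 and 58.5 CPM in shTCTP and 45.9, 54.2 and 59.8 CPM in shCtrl (log2 fold change 0.08). Of 8 interferon-stimulated genes 0 were called, with 1 at an unadjusted p under 0.05 (11.1% of all genes) and a median of 0.01. The hepatocyte markers, whose median log2 fold change was -0.30, were on the same side of 0 as the inducible subunits, and their part in that result was not tested.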

How the data were processed

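RNA-seq was analysed from 6 HepG2 samples, 3 shTCTP and 3 shCtrl. The authors deposited a table of whole-number read counts and a table of FPKM, each by gene; FPKM carried no scaling between libraries beyond depth, as tested on the files. Per the submitters' processing notes, bcl2fastq, TopHat2, edgeR and GRCh38 were used. Nothing on the counting step, its annotation or its use of strand is given in the sources used here. Gene coordinates came from GENCODE release 29 and promoters from RefSeq. Depth was 25427614 to 30486409 reads per sample; samples of a group differed by more than counting error (13.9 to 85.7 as chi-square over its degrees of freedom), and the scatter between samples, more than depth, limits the precision of most values.

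The deposited counts were filtered with filterByExpr (14197 genes kept), scaled by trimmed mean of M-values and tested with edgeR 4.0.16 (robust quasi-likelihood fit, R 4.3.3), shTCTP over shCtrl, with Benjamini-Hochberg adjustment over all genes tested and a threshold of 0.05. CPM uses those scaled library sizes. The script was tested on simulated data. It recovered 25.4% of simulated 1.5-fold changes, 86.6% of 2-fold changes and 100% of 4-fold changes, and 4.73% of its calls were false. Changes as small as 1.5-fold were therefore mostly missed. Catalytic ratios were taken from the deposited FPKM values within a sample and compared by exact permutation. Alternatives were RLE and upper quartile scaling, other filters, DESeq2 1.42.0, limma 3.58.1 (voom, and log2 of FPKM plus 1 or 0.1), a length correction, a replicate block and leaving out samples. Summing the split PSMA1 and PSMA2 entries, and leaving out shTCTP replicate 3 with shCtrl replicate 1, were added after seeing the data. No 2 samples agreed within sampling noise.

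The members and lists were chosen with earlier results of these data known. Named with values were, in each role, the genes with the lowest p, the highest and lowest fold change and the highest and lowest FPKM; the 6 catalytic subunits; untested genes; TPT1; and the gene with the lowest p of each pathway list. PSMG2, MAFG, MAFK, NFE2L1, TAP1, PSME2 and the leukocyte markers were added after their values were seen. 1 leukocyte marker is not reported here.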

Additional observations from a re-analysis of the deposited data

How the results depend on the processing

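No proteasome gene was called under any alternative run. The lowest adjusted p was 0.0583, for PSMA6 without shTCTP replicate 1. The log2 fold changes of PSMB8 (-0.388 to -0.129), PSMB9 (-0.37 to -0.118) and PSMB10 (-0.478 to -0.192) stayed negative under each alternative run. The 3 catalytic ratio differences also stayed negative, but this is no separate support. Their groups do not overlap, so leaving out or rescaling samples could not change the sign. Genes called higher over the whole table (179) were 76 to 300 with 1 sample left out. Genes called lower (21) were 3 to 43 with 1 sample left out, 60 with DESeq2, 52 with the length correction, 71 without a filter, 8 and 7 with limma on FPKM plus 0.1 and plus 1, and 42 with shTCTP replicate 3 and shCtrl replicate 1 both left out. The 19S cap median was 0.0237 to 0.0801 with 1 sample left out, and 0.126 and 0.125 with FPKM plus 0.1 and plus 1. The signs that follow cover only the genes named by role and the catalytic subunits, without those added later. Other proteasome genes changed sign too, such as PSMB1, with a log2 fold change of -0.04 in edgeR. Its mean FPKM was 334 in shTCTP and 319.5 in shCtrl. With FPKM plus 0.1 and plus 1 these log2 fold changes turned positive: PSMB5 at 0.109 and 0.109, PSMB2 at 0.0619 and 0.061, PSMB4 at 0.0285 and 0.0284, PSMB7 at 0.0669 and 0.0667, PSMD10 at 0.00332 and 0.00334, PSMD12 at 0.0478 and 0.0367, and PSMF1 at 0.103 and 0.101. PSMB5 was also positive with voom (0.00319) and the length correction (0.0267). With both named samples left out PSMB7 was 0.034, PSMC3 -0.03, PSMC6 0.0198, PSMD12 0.124 and PSMD14 0.0168. Leaving out 1 sample reversed the sign in at least 1 case for PSMA2 ENSG00000106588.10 (-0.537 to 0.191), PSMB2 (-0.143 to 0.0412), PSMB4 (-0.179 to 0.0883), PSMB5 (-0.117 to 0.0918), PSMB6 (-0.045 to 0.248), PSMB7 (-0.142 to 0.152), PSMC3 (-0.0937 to 0.0852), PSMC6 (-0.236 to 0.0368), PSMD5 (-0.0449 to 0.154), PSMD8 (-0.012 to 0.239), PSMD12 (-0.224 to 0.159), PSME4 (-0.0875 to 0.326), PSMF1 (-0.0228 to 0.026), PSMG3 (-0.0118 to 0.262) and PSMG4 (-0.0732 to 0.227). The cause of these changes was not tested. Deviations of same-numbered samples correlated at -0.232, 0.0015 and -0.2. These values show no pairing by replicate number but cannot exclude it, with 3 samples per group. With a replicate block, 111 genes were called higher, PSMB5 had a log2 fold change of 0.00383, and no proteasome gene was called. Depth limits PSMB11 and the smaller PSMA2 entry.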
